A study of Mus musculus with 384 samples.

Results

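The expression of 9 genes of the Hedgehog pathway, of 23422 genes in all, was followed in single mesenchymal cells of the adult mouse lung. These members are the receptor Ptch1, the ligand-binding inhibitor Hhip, the coreceptors Boc and Gas1, the transducer Smo, the inhibitor Sufu and the transcription factors Gli1, Gli2 and Gli3. They were listed by name, and the list was drawn up because Gli1 was close to absent in cells of the Lgr5 line. The difference of the members between the lines is therefore a description without a test. All 9 were in the files and all 9 passed the filter on low counts in both comparisons.

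Hedgehog ligands are secreted proteins that bind the receptor Ptch1 and so relieve its inhibition of Smo, after which Gli proteins turn on target genes. Gli1, Ptch1 and Hhip are themselves targets of the pathway, so that their mRNA levels are widely used as readouts of signalling, and Ptch1 and Hhip in turn limit the spread or reception of the ligand. In the lung the ligand is made by epithelium and received by the mesenchyme beneath it, which includes airway smooth muscle.

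Cells came from the dissociated lungs of 4 mice, which were 7 to 10 weeks old in most experiments of the study. From 2 Lgr5-CreERT2;R26-Tom mice, induced with tamoxifen, Tom+ cells were sorted (Lgr5+ cells), so that the label marks cells in which the Lgr5-driven Cre acted and their descendants. From 2 Lgr6-EGFP-CreERT2 mice, GFP+ cells were sorted (Lgr6+ cells), where GFP is made from the Lgr6 locus itself. All sorts were negative for CD31, CD45, CD11b and TER119 and both lines carry a CreERT2 allele. The mouse is the replicate, so each line has n = 2 and p-values rest only on variation among these animals.

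Of 95 single-cell wells per mouse, the authors' filter kept 29 and 28 cells of Lgr5 mice 1 and 2 and 50 and 75 cells of Lgr6 mice 1 and 2. The median cell had 263129, 272729, 332588 and 1537593 counts in that order, so that Lgr6 mouse 2 was sequenced the deepest and the other 3 mice lay close together. Lgr5 mRNA was found in 23 of 29 and 21 of 28 Lgr5+ cells and in 11 of 50 and 28 of 75 Lgr6+ cells, with a mean log2(TPM + 1) of 5.29 and 4.69 against 0.29 and 0.73. Lgr6 mRNA did not separate the lines, with means of 1.56 and 1.77 (Lgr5 mice) against 1.15 and 1.61 (Lgr6 mice). A cell was called Acta2-high where Acta2, the smooth muscle actin gene, had a log2(TPM + 1) of 11 or more, which held for 1 and 0 Lgr5+ cells and for 27 and 38 Lgr6+ cells. The nearest cells on either side of this limit had 11.03 and 10.97, and 9 cells lay within 0.5 of it. All 8 airway smooth muscle markers examined (Acta2, Tagln, Myh11, Cnn1, Des, Actc1, Actg2 and Mylk) were detected among the Acta2-high cells of both Lgr6 mice. They were also all detected among the other Lgr6+ cells of both mice. Their median summed TPM was 16039.3 and 20828.7 in Acta2-high cells against 807.8 and 944.9 in the others. Acta2, which defined the classes, is part of this sum, so part of the contrast was set by the limit. Its mean TPM alone was 6517 and 8021 against 428 and 547.

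Hhip and Ptch1 both encode proteins that bind the ligand and hold the pathway back, yet they differed in pattern among these cells, Hhip being found in most of them and Ptch1 more often in Acta2-high ones. The 250 bases before their RefSeq starts are shown for this reason. Windows from RefSeq on GRCm38.p6, which is the build mm10, were at hand for 7 of the 9 members, all but Gli1 and Boc. Both sequences run 5′ to 3′ on the minus strand, and capitals mark the GC box (GGGCGG or its reverse CCGCCC). The Hhip window, chr8:80058009-80058258, overlaps no annotated gene of GENCODE vM21, and the Ptch1 window, chr13:63565736-63565985, lies within the annotated Ptch1 gene but over no exon of any gene.
Hhip: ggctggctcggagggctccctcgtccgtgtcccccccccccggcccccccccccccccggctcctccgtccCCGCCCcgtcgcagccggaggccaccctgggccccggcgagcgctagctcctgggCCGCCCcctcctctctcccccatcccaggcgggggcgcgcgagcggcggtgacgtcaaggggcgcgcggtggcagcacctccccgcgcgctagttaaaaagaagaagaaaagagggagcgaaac
Ptch1: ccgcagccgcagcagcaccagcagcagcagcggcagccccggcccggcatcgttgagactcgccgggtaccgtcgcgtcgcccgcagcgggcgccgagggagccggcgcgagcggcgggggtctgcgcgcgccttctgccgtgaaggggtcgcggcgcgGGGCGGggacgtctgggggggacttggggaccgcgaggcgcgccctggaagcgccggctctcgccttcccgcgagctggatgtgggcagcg
Both windows were rich in G and C, with 76% in Hhip and 78.4% in Ptch1. In the full windows of 300 bases, searched on both strands, a GC box was present in 6 of the 7 members (all but Smo) and in 35.7% of 32851 windows of all genes. The Gli recognition sequence GACCACCCA (reverse TGGGTGGTC) was found in 0 of the 7 and in 0.253% of all windows, which says only that these letters are not in these windows.

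Hhip, which encodes a membrane protein that binds Hedgehog ligands and keeps them from Ptch1, was by far the most abundant member in both lines. It lies on chromosome 8 (79965851 to 80058006, minus strand, GRCm38). At least 1 read was found in 26 of 29 and 25 of 28 Lgr5+ cells and in 42 of 50 and 67 of 75 Lgr6+ cells. Mean TPM (transcript abundance corrected for length and scaled to the cell's total) was 1171 and 857 for the Lgr5 mice against 1045 and 972, so that the lines overlapped on this scale. On the mean of log2(TPM + 1) over cells, Hhip was at 8.66 ± 0.22 in the Lgr5 line and 8.19 ± 0.05 in the Lgr6 line (SD, n = 2), and there the lines did not overlap. In cells where it was detected, the median log2(TPM + 1) was 10.25, 9.97, 10.17 and 10.01 in the 4 mice. Among the Lgr5-line wells left out by the filter, 9 per mouse had Ptprc, the CD45 gene of leukocytes, at a TPM of 1 or more and Pecam1 below 1. Hhip reads were found in 7 and 8 of these, with a median TPM of 120.9 and 277.7 at a median depth of 283856 and 380995 counts. The share of these wells with a Hhip read was 77.8% and 88.9% against 89.7% and 89.3% of the kept cells, whereas its level was lower there. Other removed wells of the Lgr5 mice varied more. Hhip was found in 6 of 11 and 15 of 18 with Pecam1 and not Ptprc, and in 29 of 31 and 17 of 23 with both. With neither gene it was found in 4 of 15 wells of mouse 1.

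Ptch1, the receptor on chromosome 13 (63508328 to 63573598, minus strand), stood higher in the Lgr6 line. It was detected in 6 of 29 (20.7%) and 5 of 28 (17.9%) Lgr5+ cells and in 27 of 50 (54%) and 36 of 75 (48%) Lgr6+ cells. As mean log2(TPM + 1), Lgr5 mice stood at 0.70 and 0.73 and Lgr6 mice at 3.58 and 2.96, and mean TPM was 3.01, 17.2, 88.5 and 86.5. The lines did not overlap on either scale. The wells with Ptprc just described held Ptch1 reads in 3 of 9 and 2 of 9 cases and Gli1 reads in 1 of 9 and 1 of 9, shares no lower than those of the Lgr5+ cells. These wells also held more genes, with medians of 6404 and 5955 against 4277 and 3640 in the kept cells. In removed wells of the Lgr5 mice with Pecam1 and not Ptprc, Ptch1 was found in 2 of 11 and 6 of 18. In those with both genes, which held a median of 11263 and 7490 genes, it was found in 24 of 31 and 9 of 23. In those with neither gene it was found in 1 of 15 and 1 of 17, where the wells of mouse 2 had a median of only 27 counts. The share with a Ptch1 read thus differed with the wells chosen. Whether the removed wells show a background of detection was not tested. When cells were thinned to 99000 reads, those with fewer were left out, which removed 1, 3, 13 and 2 cells of the 4 mice. The Ptch1 shares were then 14.3%, 12%, 40.5% and 42.5%, so that they differ from the first shares in depth and in the cells used.

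Boc, a coreceptor that presents the ligand to Ptch1, showed the same order of the lines. It lies on chromosome 16 (44485049 to 44558897, minus strand) and was detected in 11 of 29, 11 of 28, 33 of 50 and 57 of 75 cells. The mean log2(TPM + 1) was 2.63 and 2.68 in the Lgr5 mice against 5.01 and 5.15 in the Lgr6 mice, without overlap. After thinning, shares of 39.3% and 36% stood against 62.2% and 72.6%. In the Ptprc wells Boc was found in 6 of 9 and 4 of 9 cases, which is no lower than its Lgr5+ shares.

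Gas1, the other coreceptor among the members, was sparse. It was detected in 5 of 29, 3 of 28, 10 of 50 and 16 of 75 cells, and its mean log2(TPM + 1) was 0.98 and 0.46 against 1.54 and 1.26. In Lgr6 mouse 1, 77.7% of all Gas1 reads came from 1 cell, so sums of counts for this gene follow single cells.

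Smo, the membrane protein that Ptch1 holds in check, was at a similar level in both lines. It was detected in 6 of 29, 5 of 28, 11 of 50 and 17 of 75 cells, with a mean log2(TPM + 1) of 0.865, 0.808, 0.995 and 0.867. Lgr5 mouse 1 and Lgr6 mouse 2 were thus all but equal. Sufu, which retains Gli proteins in the cytoplasm, was detected in 4 of 29, 2 of 28, 6 of 50 and 16 of 75 cells, with means of 0.66, 0.32, 0.77 and 1.28. Here too, 1 cell gave 83.2% of the reads of Lgr6 mouse 1.

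Gli1, the transcription factor whose own gene is switched on by the pathway, was the member chosen for its near absence in the Lgr5 line. It lies on chromosome 10 (127329882 to 127341974, minus strand). No Gli1 read was found in the 29 cells of Lgr5 mouse 1, which allows a share of cells with a read of up to 10.3% by the limit of 3 counts and 11.9% by the exact interval, and 2 reads in 1 of 28 cells of Lgr5 mouse 2. In the Lgr6 mice it was found in 11 of 50 (22%, exact binomial 95% interval 11.5 to 35.96%) and 17 of 75 cells (22.7%, 13.8 to 33.8%). Thinned to 99000 reads, the shares were 0%, 4%, 16.2% and 19.2%. The 2 reads of 23072929 in the Lgr5 line stood against 3608 of 153525822 in the Lgr6 line, a ratio of 271 in favour of the Lgr6 line with an exact counting interval of 75 to 2239.6. The fitted log2 fold change of the Lgr5 over the Lgr6 line was -8.28 and ran from -13.42 to -1.07 over the alternatives, with -6.39 for thinned cells, -3.97 for limma on log2(mean TPM + 1) and -13.42 without Lgr5 mouse 2, where the Lgr5 line has no read and the fitted value is no bound. Reads are not molecules in this protocol and those of 1 cell are not independent, so the ratio only describes the contrast that the rule used. Its interval treats reads as independent and does not cover the spread between cells or mice. The intervals of the shares cover counting error only. Where Gli1 was detected, it was not faint, with a median log2(TPM + 1) of 5.96 and 5.88 in the Lgr6 mice.

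Gli2, an activator, and Gli3, which acts mainly as a repressor, did not show this pattern. Gli2 was detected in 7 of 29, 3 of 28, 13 of 50 and 18 of 75 cells, with means of 0.83, 0.40, 1.12 and 0.88. Gli3 was detected in 7 of 29, 3 of 28, 8 of 50 and 15 of 75 cells, with means of 0.68, 0.22, 0.72 and 0.66, so that the lines overlapped. In both cases the 2 Lgr5 mice differed from each other by more than Lgr5 mouse 1 differed from the Lgr6 mice.

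**Figure D1:**
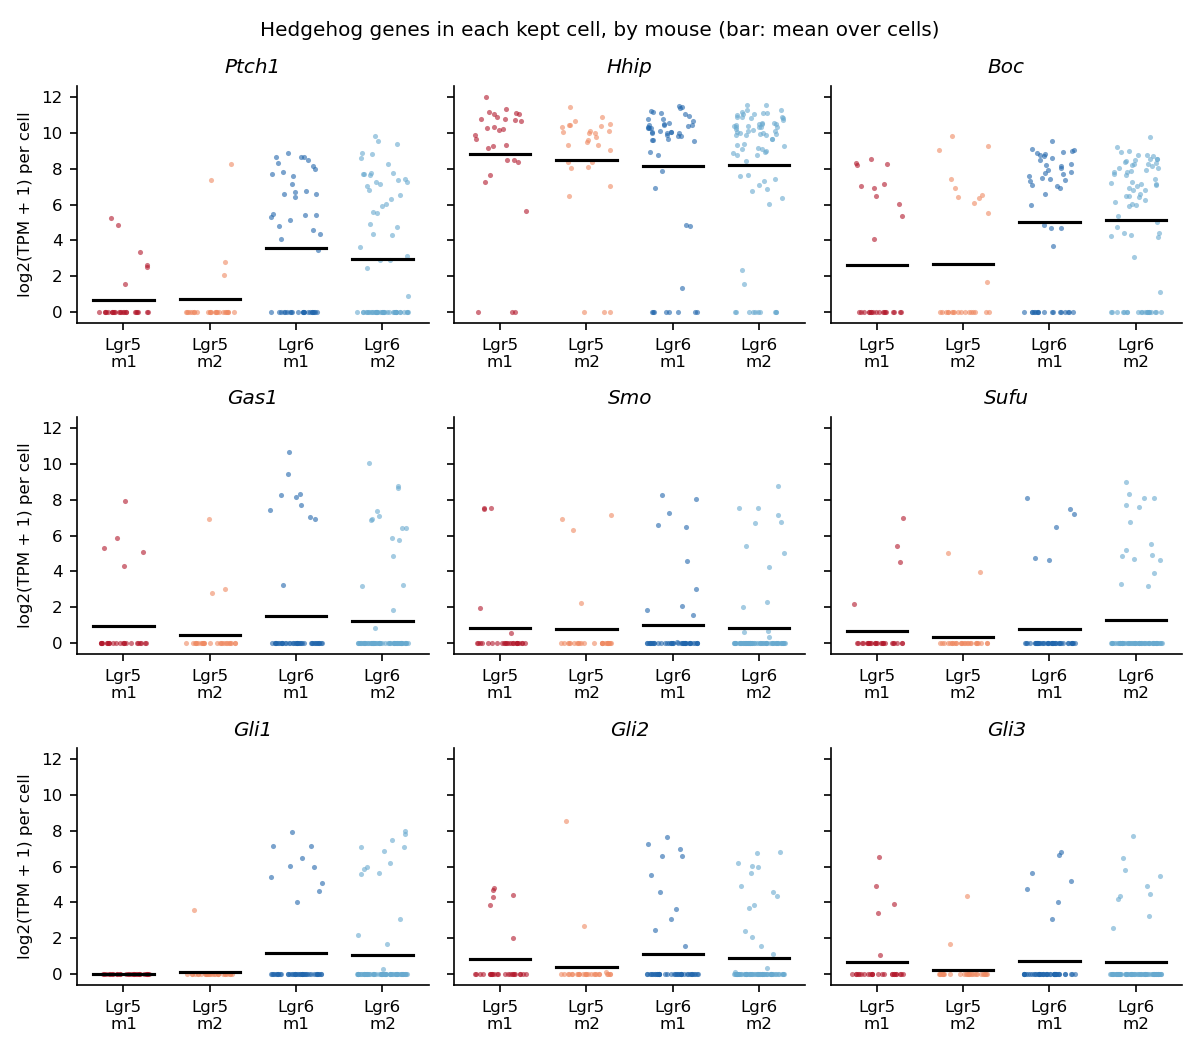
Each point is a kept cell and gives log2(TPM + 1) of the gene named above the panel, with cells grouped by mouse on the horizontal axis and the mean over cells drawn as a bar. Hhip lies near 10 in most cells of all 4 mice, whereas Gli1 leaves 0 in 1 of 57 Lgr5+ cells and Ptch1 and Boc have higher means in both Lgr6 mice.

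For the counts summed per mouse, 0 of 14086 genes (0%) were called between the lines by edgeR (quasi-likelihood test, Benjamini-Hochberg adjusted p under 0.05), with 1312 genes under 0.05 before adjustment. With DESeq2 567 genes passed. Of the 9 members 0 passed in edgeR, and nothing is read from this since the rule used the contrast. The log2 fold change of the Lgr5 over the Lgr6 line was -4.08 for Ptch1 (standard error 0.79), -1.31 for Boc (0.48) and -3.11 for Gas1 (1.43). It lay between -1.61 and -1.10 for Gli2, Gli3, Smo and Sufu, and was 0.24 for Hhip (0.26). With cells thinned to 1 depth and shallower cells left out, Ptch1 was at -2.57 and Boc at -0.58, and Gli2 (0.41) and Smo (0.26) changed sign. With 1 mouse left out, Gas1 ran from -6.25 without Lgr5 mouse 1 to -1.66 without Lgr6 mouse 1, Gli3 from -3.97 without Lgr5 mouse 1 to 0.049 without Lgr6 mouse 1, Gli2 was at -0.57 and Boc at -0.86 without Lgr6 mouse 1, and Smo was at -0.48 without it. Markers of other cells differed between the lines as well. The 7 epithelial markers had a median summed TPM of 180.5 and 99.1 per Lgr5+ cell and 2.39 and 1.98 per Lgr6+ cell, and the 5 erythroid genes measured had 2156.5 and 2283.1 against 0 and 0. Only 4 of these 5 were detected in the kept cells of either Lgr5 mouse, and the sum does not tell them apart. The part of these markers in the difference of the members was not tested.

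The lines also differ in their share of Acta2-high cells, so the members were set side by side in the other cells alone. Among these, Gli1 was found in 0 of 28 and 1 of 28 Lgr5+ cells and in 3 of 23 and 5 of 37 Lgr6+ cells. Ptch1 had means of 0.72 and 0.73 against 2.25 and 1.40, and was detected in 6 of 28 and 5 of 28 against 8 of 23 and 8 of 37 cells. Boc had means of 2.51 and 2.68 against 3.93 and 4.29. On the mean of log2(TPM + 1), Hhip was higher in the Lgr5 line here, with 8.87 and 8.51 against 7.11 and 7.20. Its mean TPM overlapped, at 1207 and 857 against 1021 and 966. In the cells with a Hhip read, the median log2(TPM + 1) was 10.27 and 9.97 against 10.35 and 10.05. In these cells the Ptch1 shares of Lgr5 mouse 1 and Lgr6 mouse 2 were all but equal, at 21.4% and 21.6%. These values are a description and bear on no cause.

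Whether Hedgehog genes go with smooth muscle was asked within the Lgr6 mice, where both classes of cells come from the same animals. Ptch1 was detected in 19 of 27 (70.4%, exact 95% interval 49.8 to 86.2%) Acta2-high and 8 of 23 (34.8%, 16.4 to 57.3%) other cells of mouse 1. In mouse 2 it was detected in 28 of 38 (73.7%, 56.9 to 86.6%) and 8 of 37 (21.6%, 9.83 to 38.2%). The mean log2(TPM + 1) was 4.71 against 2.25 and 4.48 against 1.40, a difference of 2.77 ± 0.44 (SD, n = 2 mice). Thinned to 1 depth, the shares were 57.1% against 18.8% and 67.6% against 16.7%. Cells too shallow to be thinned were left out, so these shares rest on 21 and 16 cells of mouse 1 and 37 and 36 of mouse 2. Both mice thus had Ptch1 in more of the Acta2-high cells, also at equal depth among the cells deep enough to be thinned. The median Acta2-high cell of mouse 1 had 418813 counts and the median other cell 165685, while in mouse 2 they had 1546057 and 1511706.

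Boc and Hhip went the same way by detection. Boc was found in 21 of 27 against 12 of 23 cells of mouse 1 and 33 of 38 against 24 of 37 of mouse 2, with a difference in mean log2(TPM + 1) of 1.84 ± 0.21. Hhip was found in 25 of 27 against 17 of 23 and 37 of 38 against 30 of 37 cells, with a difference of 1.98 ± 0.07. Yet in the cells with a Hhip read, the median log2(TPM + 1) was 10.05 against 10.35 and 9.88 against 10.05, so that the detected level was not higher in Acta2-high cells. Mean TPM of Hhip over all cells was also close, at 1065 against 1021 and 977 against 966.

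Gli1 was found in 8 of 27 against 3 of 23 cells of mouse 1 and 12 of 38 against 5 of 37 of mouse 2, and most Acta2-high cells had none. The mean log2(TPM + 1) was 1.81 against 0.48 and 1.64 against 0.50, a difference of 1.23 ± 0.14. The intervals of the shares overlapped within each mouse, at 13.8 to 50.2% against 2.78 to 33.6% and 17.5 to 48.7% against 4.54 to 28.8%. Gli2 differed by 0.38 in both mice. Gli3 was lower in Acta2-high cells by a mean of 0.20 and 0.26, and Smo, Sufu and Gas1 moved in opposite directions in the mice.

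**Figure D2:**
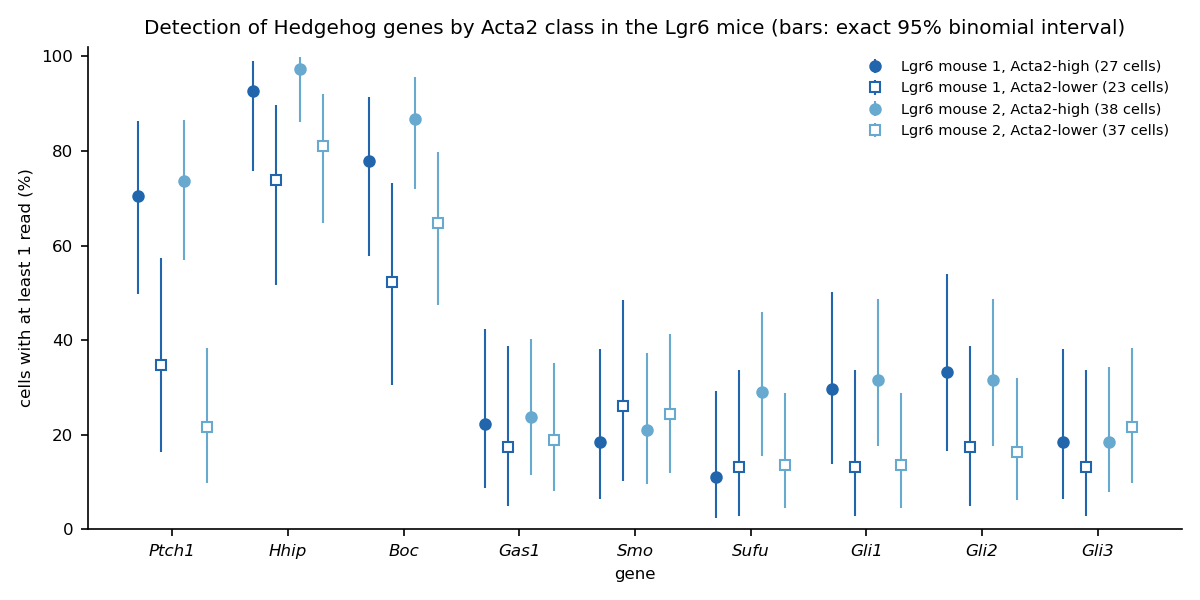
The vertical axis gives the percentage of cells with at least 1 read of each gene on the horizontal axis, in Acta2-high (filled) and other (open) cells of both Lgr6 mice, with exact 95% binomial intervals as bars. For Ptch1 the Acta2-high cells are at 70.4% and 73.7% and the others at 34.8% and 21.6%. The intervals of the classes lie apart for Ptch1 in mouse 2 and overlap for Ptch1 in mouse 1 and for the other 8 members in both mice.

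In the test of the summed counts, 0 of these differences passed. With the mouse as a block, edgeR called 4 of 13529 genes (0.0296%) at an adjusted p under 0.05, with 1039 at an unadjusted p under 0.05. The called genes were Acta2, which defined the classes, and the surfactant genes Sftpa1, Sftpc and Sftpd, which fell in Acta2-high cells. The 7 epithelial markers summed to at most 988 and 60.4 TPM in an Acta2-high cell and to as much as 352236 and 344774 TPM in another Lgr6+ cell, and their part in the differences of the members was not tested. Of the 9 members 0 were called, 0 had an unadjusted p under 0.05, 4 were higher and 5 lower, and their median log2 fold change was -0.28 against 0.02 over all genes tested. By edgeR's quasi-likelihood fit and Benjamini-Hochberg adjustment, Ptch1 was at 1.38 (standard error 0.93, adjusted p = 0.966), Gli1 at 1.70 (1.27, adjusted p = 0.975), Boc at 0.70 (0.42, adjusted p = 0.921) and Hhip at 0.19 (0.20, adjusted p = 1). The other members lay between -1.77 for Gas1 (0.89, adjusted p = 0.849) and -0.28 for Smo. DESeq2 called 923 of 13529 genes and none of the 9 members, with the smallest adjusted p among them at 0.263. At that share over all genes, no call among 9 says nothing particular about the members.

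Single cells carried much of several sums. In mouse 1, 1 cell held 80.3% of the Ptch1 reads of the Acta2-lower class, and its CPM (counts scaled to the total of the sum) was 145.4 against 144.9 although the share of positive cells was 70.4% against 34.8%. In mouse 2 Ptch1 was at 208.1 against 30.7 CPM. Without the cell with most Ptch1 reads in each Lgr6 mouse, a comparison chosen after seeing the data, the log2 fold change of Ptch1 was 2.36 (adjusted p = 0.594 by edgeR). Without mouse 2 it was -0.03. For Gli1, 1 cell gave 67.9% and 24.6% of the reads of Acta2-high cells and 94.6% and 90.2% of those of the other cells in mice 1 and 2. CPM of Gli1 was 35.8 against 13.6 and 35.3 against 8.78, higher in Acta2-high cells of both mice. Without the cell with most Gli1 reads in each mouse, the log2 fold change of Gli1 was 0.84 in place of 1.70 (adjusted p = 1 by edgeR). On the mean of log2(TPM + 1) over cells, where each cell counts the same, limma gave adjusted p-values of 0.105 for Ptch1, 0.116 for Hhip, 0.128 for Boc and 0.164 for Gli1. This scale, also chosen after seeing the data, called 0 of 16831 genes, with 2191 at an unadjusted p under 0.05.

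**Figure D3:**
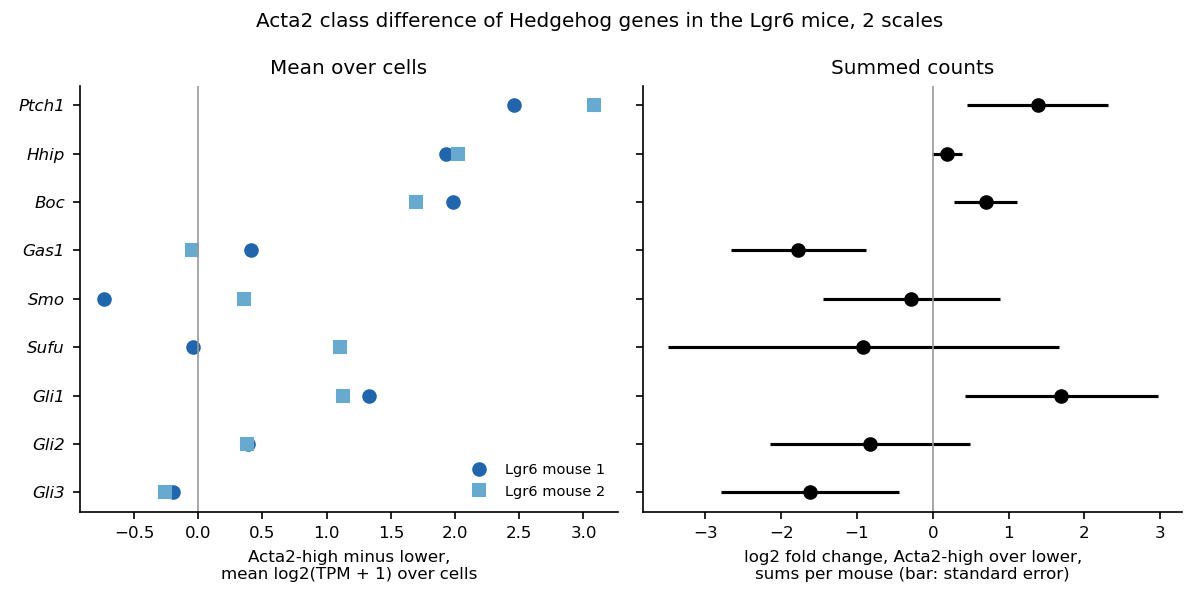
Left, the difference in mean log2(TPM + 1) over cells between Acta2-high and other cells for each member, 1 symbol per Lgr6 mouse. Right, the log2 fold change of the summed counts with its standard error. Ptch1, Hhip, Boc and Gli1 lie between 1.13 and 3.08 in both mice on the left, whereas on the right only Ptch1, Gli1 and Boc are above 0.5 and 0 of 9 passed the test.

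The cells below the Acta2 limit were of several kinds, and in the Lgr6 mice the level of Hhip differed among them. Over the 4 mice, 53 of these cells had neither Epcam, Sftpc nor Pdgfra at a TPM of 1 or more, and Hhip was detected in all 53, which were 9, 15, 13 and 16 cells of the 4 mice. It was detected in 33 of 44 cells with the epithelial genes Epcam or Sftpc, and in 11 of 19 cells with Pdgfra, a fibroblast gene. A TPM of 1 does not make a cell epithelial. The 7 epithelial markers had a median sum of 180.5 and 99.1 TPM over all kept cells of the Lgr5 mice. Whether cells with Epcam or Sftpc were epithelium was not tested. In the Lgr6 mice the mean log2(TPM + 1) of Hhip was 10.57 and 10.15 in the cells with none of these genes, 3.98 and 6.44 in those with Epcam or Sftpc, and 1.25 and 2.52 in those with Pdgfra. The Lgr5 mice did not show this order throughout, with 9.71 and 9.58 in the cells with none of these genes, 9.56 and 6.81 in those with Epcam or Sftpc, and 4.41 and 9.87 in the 4 and 2 cells with Pdgfra. Acta2-high cells of the Lgr6 mice, at 9.04 and 9.22, were between the first kind and the rest. With the cells holding Epcam, Sftpc or Pdgfra left out, the log2 fold change of Hhip between the classes was -0.55 in place of 0.19. In the same fit the log2 fold change of Ptch1 was 0.64 in place of 1.38. On the mean of log2(TPM + 1), Ptch1 and Boc did not follow Hhip. In the cells with none of the 3 genes, Ptch1 was at 2.24 and 2.06 against 4.71 and 4.48 in Acta2-high cells, and Boc at 4.52 and 5.38 against 5.92 and 5.98. These kinds of cells were set out by the deposited values of those genes and the differences between them were not tested.

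**Figure D4:**
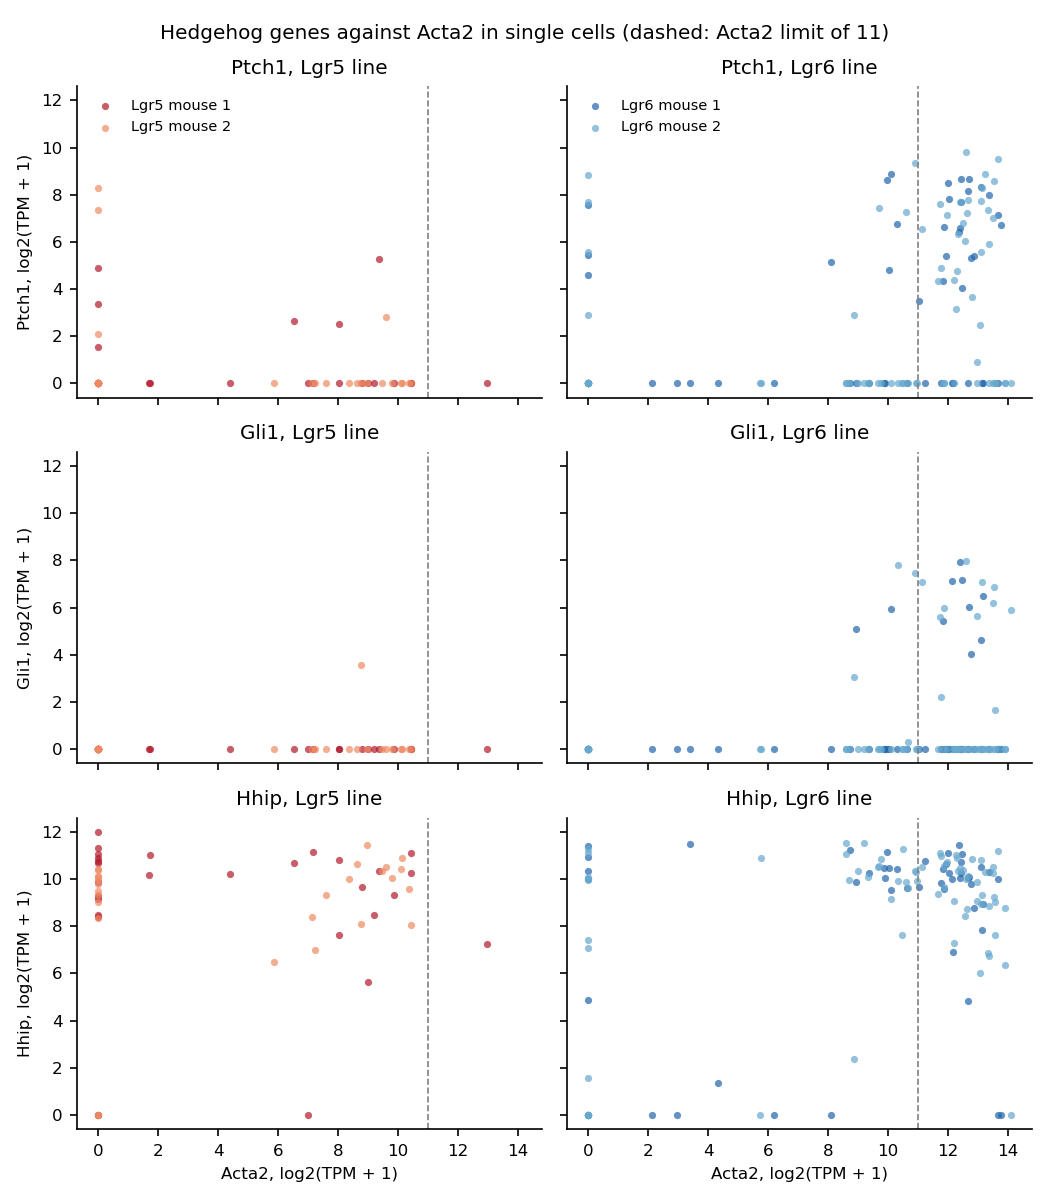
Each point is a kept cell, with log2(TPM + 1) of Acta2 on the horizontal axis and of Ptch1, Gli1 or Hhip on the vertical axis, for the Lgr5 line (left) and the Lgr6 line (right). The dashed line is the Acta2 limit of 11. Right of it in the Lgr6 line, Ptch1 reads were found in 19 of 27 and 28 of 38 cells, and Hhip lies near 10 in most cells on both sides of it. In the Lgr5 line 1 cell lies right of it, with a Hhip value of 7.27.

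Since Hhip was found in most cells of every mouse, its overlap with Gli1 and Ptch1 follows largely from its own share. Over all kept cells, Hhip was detected in 160, Ptch1 in 74 (69 of them with Hhip) and Gli1 in 29. Of the 29 cells with Gli1, 28 also had Hhip and 18 had Ptch1, and all 18 had Hhip too. Hhip without Gli1 or Ptch1 made up 20 of 26 and 20 of 25 Hhip cells in the Lgr5 mice. Among Acta2-high Lgr6+ cells this held for 5 of 25 and 7 of 37 cells with Hhip, against 9 of 17 and 20 of 30 in the other Lgr6+ cells. These shares were compared without a test. Most Hhip-positive Lgr5+ cells thus had no read of either other target. Of the cells with Gli1, 15 had no read of Gli2 or Gli3, and 0 had a read of Epcam. Yet 3 of them, among them the Gli1 cell of Lgr5 mouse 2, had the epithelial gene Sftpc at a TPM of 1 or more below the Acta2 limit.

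Within each Lgr6 mouse, the correlation over cells was weak between the members. The mean of the within-mouse Spearman correlations, over 50 and 75 cells that share a library preparation and differ in depth, was 0.19 for Gli1 with Ptch1, 0.24 for Ptch1 with Hhip and 0.05 for Gli1 with Hhip. With Acta2 it was 0.37 for Ptch1, 0.28 for Gli1 and 0.04 for Hhip. Among 5779 genes found in at least 20% of the cells of both mice, the most like Ptch1 were Ednrb (0.50), Entpd1 (0.49) and Sdpr (0.45), and the most like Hhip were Enpp2 (0.62), Igf2bp3 (0.55) and Malat1 (0.54). For Gli1, Agt reached 0.35 and Mast4 0.33. Hhip correlated at -0.29 with the number of genes detected in a cell.

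The ligands themselves were at or near 0 in the sorted cells. Ihh had no read in any kept cell. Shh was found in 4 of 29, 4 of 28, 1 of 50 and 3 of 75 cells, with 4, 4, 3 and 5 reads in all, and in 0 of the 65 Acta2-high Lgr6+ cells. Dhh was found in 1 cell, of Lgr5 mouse 2. Cdon, a coreceptor related to Boc, was found in 3, 1, 3 and 5 cells of the 4 mice.

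Of 52 further genes of the pathway in 5 lists, 51 were in the files and 45 could be tested between the Acta2 classes. edgeR called 0 of them, 4 had an unadjusted p under 0.05, 22 were higher and 23 lower, and their median log2 fold change was -0.02. On the receptor side 2 were higher and 3 lower. In transduction 9 of 15 were higher, in cilium transport 5 of 10, among genes described as Gli targets 4 of 11 and among ligands and their release 2 of 4. The largest fold changes were those of Lrp2, a large endocytic receptor, Arrb2, a beta-arrestin, and Cdon, and each rested on few cells. Lrp2 was at 0 CPM in Acta2-high and at 8.26 and 77 CPM in the rest (edgeR adjusted p = 0.602). Arrb2 was at 6.03 and 3 CPM in Acta2-high and at 0 and 0.0168 CPM in the rest (edgeR adjusted p = 0.602). Cdon was at 27.8 and 16.7 CPM against 0 and 0.689 CPM (adjusted p = 0.690 by edgeR), and was found in 3 and 5 cells of the Lgr6 mice.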

How the data were processed

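Full-length cDNA of sorted single cells was amplified by PCR (Smart-Seq2, no molecular identifiers) and sequenced. Per the labels, the submitters' processing notes name kallisto 0.43.0, bcl2fastq 2.17.1.14 and the build mm10. The authors pseudo-aligned the reads and deposited estimated reads per gene as whole-number counts for all wells, and log2 values, log2(TPM + 1), for all wells and for the cells they kept. A further table of rescaled values was not used here. Gene coordinates are from GENCODE vM21.

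For each mouse, and for each Acta2 class within a mouse, the counts of its kept cells were added up and tested with edgeR 4.0.16 (TMM, filterByExpr, glmQLFit, glmQLFTest) in R 4.3.3, with Benjamini-Hochberg adjustment over all genes tested. Alternatives were DESeq2 1.42.0, limma 3.58.1, no filter, library size, thinning to 99000 reads, other Acta2 limits and sets of cells, the replicate block, and each mouse left out. Cells with fewer than 99000 reads were left out of the thinned comparisons. Pool wells and removed wells entered no test. Total counts of kept cells ran from 9874249 to 124650544 per mouse. The fits were tested on simulated data, where they recovered the size of changes but, with so few mice, called only a small part of them. Levels are means over cells per mouse, and shares have exact Clopper-Pearson 95% intervals. Named are the 9 members, the ligands, Cdon, the 3 pathway genes with the largest fold changes and up to 3 genes most like a member. Some genes that this rule names are not reported here. Genes most like a member were ranked by Spearman correlation. P-values rest only on variation among these mice. Between the Acta2 classes, with the mouse as a block, this is how the class difference varied between the Lgr6 mice. The tests also draw the variation of each gene toward that of all genes. The members and lists were chosen with earlier results of these data known.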

Additional observations from a re-analysis of the deposited data

Results flagged for a closer look

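Gli1 reads were present in wells of the Lgr5 mice that the authors' filter had left out and that entered no comparison, in 5 of 66 wells of mouse 1 and 3 of 67 wells of mouse 2. In the kept cells they were found in 0 of 29 and 1 of 28. The well with most of them, in mouse 1, had a Gli1 TPM of 83.5 with Ptprc and Pecam1 both under a TPM of 1, and an Acta2 log2(TPM + 1) of 6.84. Each of the other wells with Gli1 reads had Ptprc or Pecam1 at a TPM of 1 or more, and 3 of mouse 1 had both. Apart from a well of mouse 1 with 28 Gli1 reads, they held at most 6.

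At an Acta2 limit of 10, where the Lgr5 mice have 3 and 4 cells above it, Ptch1 differed between the classes by -0.78 and -0.86 in the Lgr5 mice and by 3.11 and 2.72 in the Lgr6 mice (mean log2(TPM + 1), cells above the limit minus the others). Gas1 differed by -1.09 and -0.53 against 0.81 and 0.54, and Sufu by -0.73 and -0.37 against 0.084 and 0.80. In each case both mice of a line moved one way and both of the other line the opposite way, and the difference between the lines was not tested. None of the 3 genes was found in the Lgr5+ cells above the limit.

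The pool wells, 1 per mouse, entered no comparison. As CPM, reads scaled to the total of the well, Hhip had 22.6 and 6758 in the pools of Lgr5 mice 1 and 2 and 1397 and 102.1 in those of Lgr6 mice 1 and 2. Boc had 416.1 in the first, 511 in the third and 49.5 in the fourth. Ptch1 had 90.1 in the pool of Lgr6 mouse 1, and Smo and Sufu had 122.98 and 123.4 in that of Lgr6 mouse 2. Gli1 had 0 reads in all 4 pools.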

How the results depend on the processing

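With 2 mice per line and 2 Lgr6 mice for the Acta2 classes, the number of genes called depended on the test. Between the lines it was 0 in the edgeR test, 408 without a filter on low counts, 567 with DESeq2 and 16 with cells thinned to 1 depth, and it ran from 0 to 34 with each mouse left out, where the lone mouse of a line is assumed to vary like the others (34 without Lgr6 mouse 1 and 7 without Lgr6 mouse 2). With limma on the mean of log2(TPM + 1), 0.783% of 19667 genes were called. With the mouse number as a replicate block it was 0, and the numbers name different animals (the differences of mouse 1 and mouse 2 correlated at 0.04 between the lines over 14086 genes). Between the Acta2 classes it was 4 with the mouse as block and 0 with no replicate block, 923 with DESeq2, 0 with limma on mean TPM at either pseudocount or on mean log values, 52 with thinned cells, 11 and 0 at Acta2 limits of 10 and 12, 0 without the cells holding Epcam, Sftpc or Pdgfra, 7 without Rn45s and 14 with all 4 mice at a limit of 10. At the limit of 11 the Lgr6 mice alone have 3 cells in either class, so that taking every such mouse gave the same fit. Leaving out an Lgr6 mouse leaves no test.

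No member was called between the Acta2 classes under any of these settings, with a smallest adjusted p of 0.105 (limma, Ptch1). Gli1 and Boc were higher in Acta2-high cells in each of the 16 and 17 alternatives that gave them a value, and 31 values of the other members changed sign. With limma on mean TPM at pseudocounts of 1 and 0.1, Gli2 was at 0.77 and 0.83, Sufu at 1.31 and 1.38 and Gas1 at 0.015 and 0.020. With limma on mean log values, Gli2 was at 0.38, Sufu at 0.53 and Gas1 at 0.18. With thinned cells, Gli2 was at 0.45, Smo at 0.38, Sufu at 0.75 and Hhip at -0.049. At a limit of 10, Gli2 was at 0.16 and Gas1 at 2.22, and at 12 Hhip was at -0.023. With all 4 mice at 10, Gli3 was at 0.82, Ptch1 at -1.22 and Hhip at -0.039. Without cells holding Epcam, Sftpc or Pdgfra, Gli2 was at 1.29, Smo at 3.03, Sufu at 0.24 and Hhip at -0.55. Without the cell with most reads of the gene in each mouse, Gli2 was at 1.02, Smo at 0.53, Sufu at 0.54 and Gas1 at 0.78. Leaving out either Lgr6 mouse, Gli2 ran from -2.11 to 0.41, Ptch1 from -0.033 to 2.76, Smo from -1.21 to 0.60 and Sufu from -3.74 to 1.84. The cause of these changes was not tested. Between the lines, Gli1, Ptch1, Boc, Sufu and Gas1 were lower in the Lgr5 line in all 14 alternatives, Gli2, Gli3 and Smo in 13 of 14, and Gli3 was at 0.049 without Lgr6 mouse 1. The fits without Rn45s, on mean log values, with all 4 mice at 10 and without the cell with most reads were chosen after seeing the data.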
